A study of Mus musculus with 14 samples.

Results

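AHCY peaks were examined along a stretch of mouse chromosome 11 from 95 to 100 Mb (mm9 build, positions counted from 1). A peak belonged to the stretch when its midpoint lay from 95000001 to 100000000. By this rule the stretch held 42 of the 4465 peaks listed for replicate 1 and 211 of the 11733 peaks listed for replicate 2. The remainder of chromosome 11, with 348 and 463 peaks, served as the reference. The stretch was chosen by the number of peaks per 5 Mb window, for its surplus of replicate 2 over replicate 1 peaks, so the numbers, scores, widths and overlaps given for it are a description of these 2 lists and carry no test.

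The peaks come from chromatin immunoprecipitation with sequencing (ChIP-seq), in which DNA bound by a protein is recovered with an antibody and sequenced. Both libraries were made with the rabbit antibody RN126PW against AHCY from wild-type E14 cells, a male mouse embryonic stem cell line of the 129/Ola strain. The cells were kept on gelatin in serum-free N2B27 medium with LIF, the MEK inhibitor PD0325901 and the GSK3 inhibitor CHIR99021, and the labels do not say whether the replicates came from separate cultures. Of the 14 libraries of the series, a ChIP-seq control made with IgG and 11 RNA-seq libraries are not analysed here. Peak lists give no read numbers, and the depth of sequencing is therefore unknown.

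AHCY (S-adenosylhomocysteine hydrolase) splits S-adenosylhomocysteine into adenosine and homocysteine. S-adenosylhomocysteine is left over whenever a methyltransferase uses S-adenosylmethionine to methylate DNA, histones, RNA or other substrates, and it inhibits these enzymes when it builds up. Removal of S-adenosylhomocysteine therefore keeps methylation reactions running, and AHCY is found in the nucleus as well as in the cytoplasm. A ChIP-seq peak marks a place where more DNA was recovered with the antibody than the peak caller expected. As background, the distal part of mouse chromosome 11 carries many genes, among them the Hoxb cluster of homeobox genes, Erbb2 and the type I keratin genes. No gene was assigned to a peak, because the gene and promoter tables used here are of the later GRCm38 assembly. For the same reason no genomic sequence is printed.

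The score of a peak is the value that the authors' peak caller gave it, and the lowest score in each list is 50. Its meaning is not stated by the labels or headers, and it was used only within its own list. In each list, rank 1 is the best score.

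The stretch was the 5 Mb window of chromosome 11 with the most peaks in both lists, among 25 windows. Replicate 1 had 42 peaks there, and its other 24 windows held 4 to 40 peaks with a median of 15. Replicate 2 had 211 peaks there, and its other 24 windows held 3 to 51 with a median of 18. In replicate 1 the stretch was thus close to the next window, from 115 to 120 Mb (40 peaks), whereas in replicate 2 it stood far above that same window (51 peaks). The stretch makes up 4.24% of the span over which peaks were found on chromosome 11. It held 10.8% of the peaks of that chromosome in replicate 1 and 31.3% in replicate 2.

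Expressed as density, replicate 1 had 8.40 peaks per Mb in the stretch and 3.08 on the remainder of chromosome 11, a ratio of 2.73 (exact 95% interval 1.93 to 3.76). Replicate 2 had 42.2 peaks per Mb in the stretch and 4.10 on the remainder, a ratio of 10.3 (8.71 to 12.1). Both lists were denser in the stretch than on the remainder, by different amounts. Because the stretch was chosen by these counts, the intervals do not test a difference. The intervals, like all others given for shares and ratios, are exact binomial (Clopper-Pearson) and cover counting error only. Peaks that lie close together are not independent. Replicate 1 peaks covered 1.86% of the stretch and 0.609% of the remainder. By coverage the stretch was not the first of the 25 windows in replicate 1, because the window from 115 to 120 Mb had 2.08%. Replicate 2 peaks covered 11.3% of the stretch and 0.707% of the remainder.

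**Figure D1:**
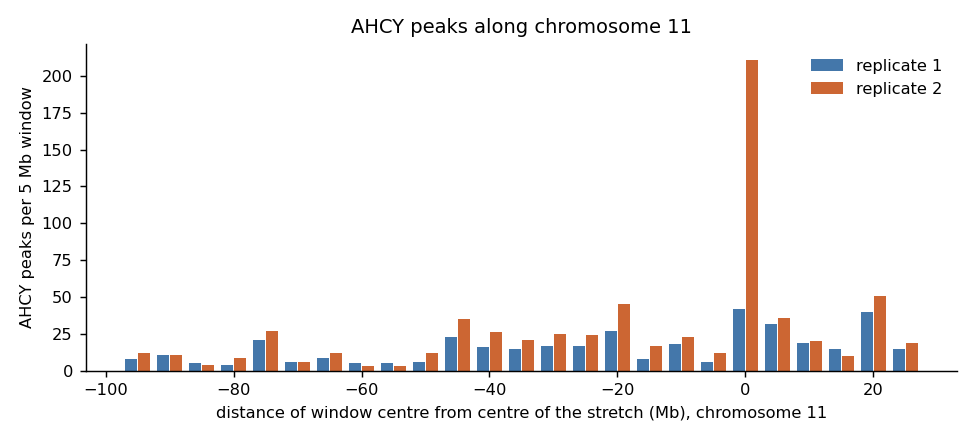
Number of AHCY peaks in each 5 Mb window of chromosome 11, for replicate 1 (blue bars) and replicate 2 (orange bars), against the distance in Mb of the window's centre from the centre of the stretch. At distance 0 replicate 1 has 42 peaks and replicate 2 has 211, and no other window of replicate 2 exceeds 51.

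Replicate 2 peaks were not spread evenly through the stretch. Most lay in 1 dense block, defined here as the longest run of peaks whose neighbours lie under 50 kb apart, a limit chosen after the positions had been seen. The block ran from 96690209 to 97952526, a length of 1.26 Mb, and held 169 of the 211 replicate 2 peaks (80.1%). Replicate 2 had 133.9 peaks per Mb within it, and its peaks covered 38.4% of its bases. Replicate 1 had 16 peaks in the block, at 12.7 per Mb, covering 3.16% of its bases. In the 3.74 Mb of the stretch outside the block, replicate 1 had 26 peaks (6.96 per Mb) and replicate 2 had 42 (11.2 per Mb). The lists were thus nearer to each other outside the block than inside it.

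The block had few replicate 2 peaks just below it and more just above it. From the start of the stretch to the block, replicate 1 had 14 peaks and replicate 2 had 15. The last 475.0 kb before the block, from 96215217 to 96690208, held 0 replicate 2 and 2 replicate 1 peaks. They were the longest gap between neighbouring replicate 2 peaks that both belonged to the stretch. The window from 96.6 to 96.7 Mb then held 1 replicate 2 peak, the next window of 100 kb held 10 and the one after it 19. At the upper end, the window from 97.9 to 98 Mb held 8 replicate 2 peaks, all in the block, and the next windows up to 98.3 Mb held 6, 5 and 6. Replicate 2 had 27 peaks between the block and the end of the stretch, against 12 in replicate 1.

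The uppermost part of the stretch was nearly empty in both lists. From 99 to 100 Mb replicate 1 had 2 peaks and replicate 2 had 1. The last replicate 1 peak of the stretch ended at 99092659 and the last replicate 2 peak at 99284977, so that neither list had a peak over the final 715.0 kb. By 100 kb windows, 24 of 50 were empty in replicate 1 and 16 of 50 in replicate 2. The fullest window held 4 peaks in replicate 1 and 19 in replicate 2. In replicate 2, 16 windows held 5 or more peaks and together 185 of the 211, while in replicate 1 the number of such windows was 0.

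**Figure D2:**
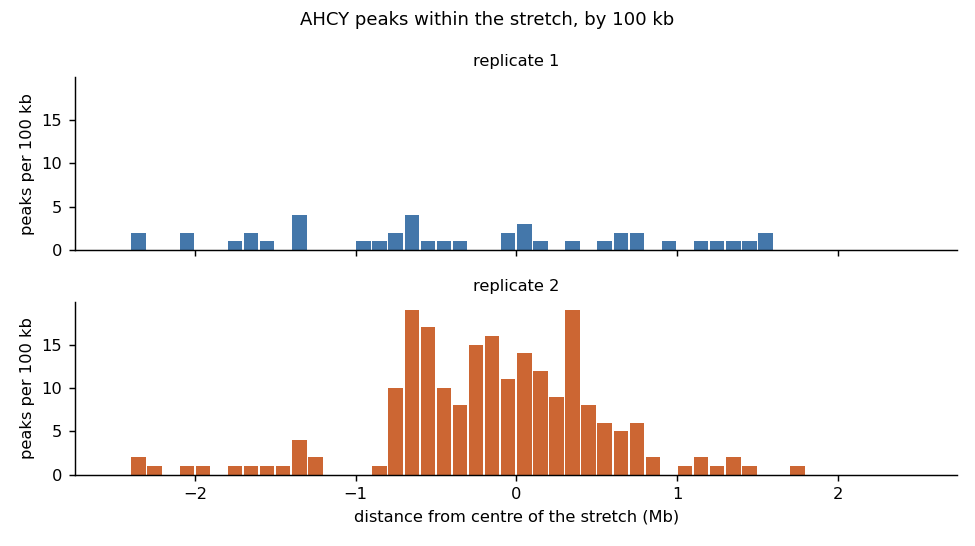
Number of AHCY peaks in each 100 kb window of the stretch in replicate 1 (upper panel, blue) and replicate 2 (lower panel, orange), on the same vertical scale, against the distance in Mb from the centre of the stretch. Replicate 1 has at most 4 peaks in a window and replicate 2 up to 19, most of them in a dense block of 1.26 Mb.

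Neighbouring replicate 2 peaks of the stretch lay close together. In a stretch chosen for its surplus of peaks, shorter gaps and longer runs of close peaks follow in large part from the density. The median gap between neighbouring replicate 2 peaks of the stretch was 3166 bp (interquartile range 729.5 to 10256 bp), compared with 91483 bp on the remainder of chromosome 11. Replicate 1 had a median gap of 63403 bp in the stretch and 120930 bp on the remainder. Of the 210 gaps between replicate 2 peaks of the stretch, 49 (23.3%) were shorter than 500 bp, and the shortest was 12 bp. On the remainder 12 of 461 (2.60%) were that short. Replicate 1 had 0 of 41 such gaps in the stretch and 5 of 346 on the remainder.

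When replicate 2 peaks less than 1 kb apart were joined, the 211 peaks became 151 regions, of which 11 were at least 10 kb long. On the remainder the number of such joined regions of 10 kb or more was 0. The longest ran over 20497 bp from 97529213 to 97549709, joined 4 peaks and was covered by peaks over 97.8% of its length. It held 1 replicate 1 peak. The next ran over 19779 bp from 97288392 to 97308170 and joined 4 peaks, and the one after that ran over 17356 bp from 97252424 to 97269779 and joined 5. Both of these held 0 replicate 1 peaks.

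With neighbours under 20 kb apart, the longest run was 301078 bp, from 97192721 to 97493798. It held 43 replicate 2 peaks, which covered 50.0% of it, and 3 replicate 1 peaks, all 3 with a partner. The next ran from 96733539 to 96949340 with 39 replicate 2 and 6 replicate 1 peaks, and the third from 97749551 to 97952526 with 34 and 1. The fourth ran from 97516084 to 97717199 with 28 and 4 peaks, and the fifth from 96970244 to 97077095 with 17 and 1. The fullest such run on the remainder of chromosome 11 held 5 replicate 2 peaks. The fullest replicate 1 run held 4 peaks, both in the stretch and on the remainder.

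Replicate 2 peaks had a higher median score in the stretch than on the remainder, although the intervals of the medians overlapped, and in replicate 1 the medians were close. The replicate 2 scores of the stretch ran from 50.6 to 518.0 with a median of 90.3 (exact 95% interval of the median 77.0 to 101.0), and those of the remainder from 50.1 to 313.0 with a median of 74.9 (70.5 to 79.1). Those of replicate 1 ran from 50.5 to 179.8 with a median of 66.2 (56.9 to 80.6) in the stretch, and from 50.2 to 216.2 with a median of 69.1 (65.2 to 72.2) on the remainder. Scores of 100 or more were reached by 92 replicate 2 peaks of the stretch (43.6%) against 126 of the remainder (27.2%), beside 26.9% of the whole list. In replicate 1 the numbers were 9 (21.4%) and 60 (17.2%), beside 16.9% of the whole list. Within the stretch, the replicate 2 median was 95.6 in the block and 78.8 outside it, while the replicate 1 median was 65.3 in the block and 70.4 outside it. The intervals of these medians overlapped between block and outside in both lists, at 79.8 to 109.9 and 66.6 to 97.0 in replicate 2 and at 55.4 to 82.0 and 53.8 to 105.1 in replicate 1.

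**Figure D3:**
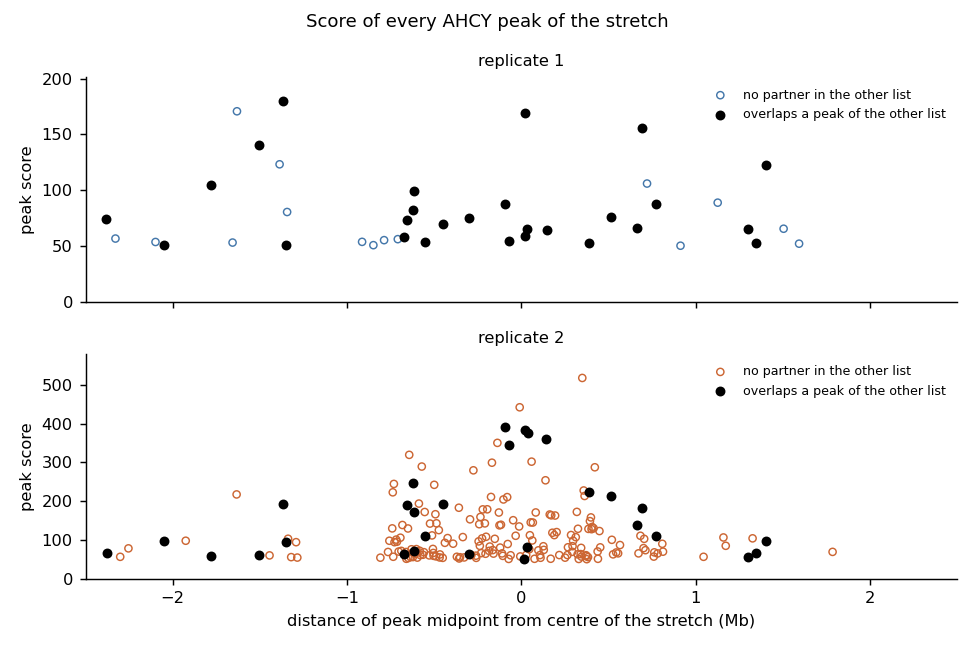
Score of every AHCY peak of the stretch in replicate 1 (upper panel) and replicate 2 (lower panel), against the distance in Mb of its midpoint from the centre of the stretch. Black points overlap a peak of the other list, open circles do not, and the vertical scales differ because scores are read within a list. The highest replicate 2 score, 518.0, belongs to a peak with no partner.

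The higher the score, the more of the replicate 2 peaks of chromosome 11 lay in the stretch. The share rose from 31.3% of all peaks to 42.2% at a score of at least 100 (92 of 218), 54.5% at 150 (48 of 88), 67.5% at 200 (27 of 40) and 90.9% at 300 (10 of 11; exact 95% interval 58.7 to 99.8%). In replicate 1 the share was 10.8% of all peaks, 13.0% at 100 (9 of 69) and 26.7% at 150 (4 of 15; exact 95% interval 7.79 to 55.1%). At 200 and above, replicate 1 had 0 peaks in the stretch and 1 on the remainder. Among the best 100 peaks of the whole list, the stretch held 3 in replicate 1 and 7 in replicate 2. All 7 of those that replicate 2 had on chromosome 11 lay in the stretch, compared with 3 of 13 in replicate 1. When the replicate 2 list was cut to its best 4465 peaks, the length of the replicate 1 list, 112 were still in the stretch.

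**Figure D4:**
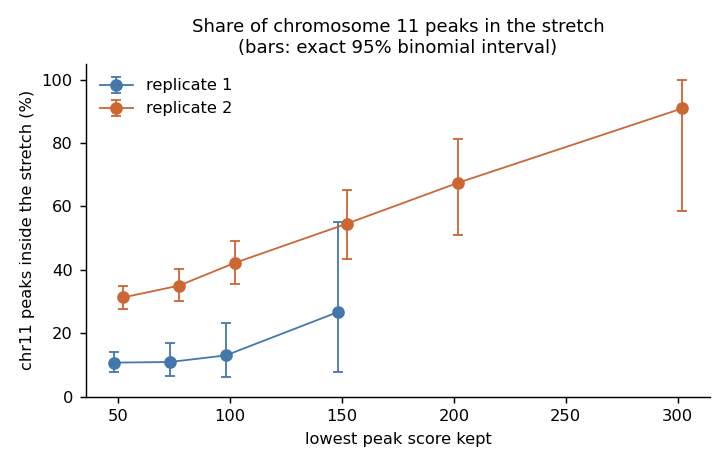
Share of the chromosome 11 AHCY peaks that lay inside the stretch (percent), against the lowest peak score kept, for replicate 1 (blue) and replicate 2 (orange). Points are shares with exact 95% binomial intervals, drawn where at least 10 peaks of the chromosome remained; replicate 2 goes from 31.3% to 90.9% and replicate 1 from 10.8% to 26.7%.

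Replicate 2 peaks were wider in the stretch than on the remainder, while replicate 1 showed a smaller difference. The median width was 2246 bp in replicate 2 (range 587 to 9730 bp), compared with 1531 bp on the remainder, and 2011.5 bp in replicate 1 (1185 to 4742 bp), compared with 1748 bp. Widths of 3 kb or more were found for 67 of 211 replicate 2 peaks (31.8%), against 26 of 463 on the remainder (5.62%) and 8.42% of the whole list. In replicate 1 they were found for 8 of 42 (19.0%, exact 95% interval 8.60 to 34.1%), against 40 of 348 (11.5%) and 8.04% of the whole list. The share of the remainder lay within that interval. Widths of 5000 bp or more were found for 0 replicate 1 peaks of the stretch and 6 of the remainder. The block held 62 of the 67 replicate 2 peaks of 3 kb or more, beside 169 of all 211. Wide peaks made up 53.6% of the bases covered by replicate 2 in the stretch and 12.8% on the remainder.

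Wide replicate 2 peaks tended to score high. In the stretch the median score was 61.0 for peaks under 1500 bp, 81.2 for those from 1500 bp to under 3000 bp, 148.7 for those of 3000 bp or more and 287.6 for the 19 of 5000 bp or more. Across the 211 peaks, Spearman's rho between score and width was 0.69, compared with 0.44 across the 463 peaks of the remainder. It was 0.53 across the whole replicate 2 list, 0.63 on chromosome 8 and 0.58 on chromosome 6. From 45 to 65 Mb of chromosome 14 it was 0.78, so a high value was not particular to the stretch. In replicate 1 rho was 0.48 across 42 peaks and 0.36 across 348. These are descriptions across peaks of 1 library each, whose scores and widths were set by the same peak caller. There were exceptions. The widest 2 peaks are among the best-scoring ones given further on, and the third, at 97299259 to 97308170, was 8912 bp wide with a score of 179.2 and no partner. Of the 5 widest replicate 2 peaks of the stretch, the remaining 2 scored below the median of the whole replicate 2 list, 73.0. One lay at 97192721 to 97200808 (8088 bp, score 62.9) and overlapped a replicate 1 peak of 4163 bp. The other lay at 97434048 to 97441553 (7506 bp, score 60.6) and had no partner.

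**Figure D5:**
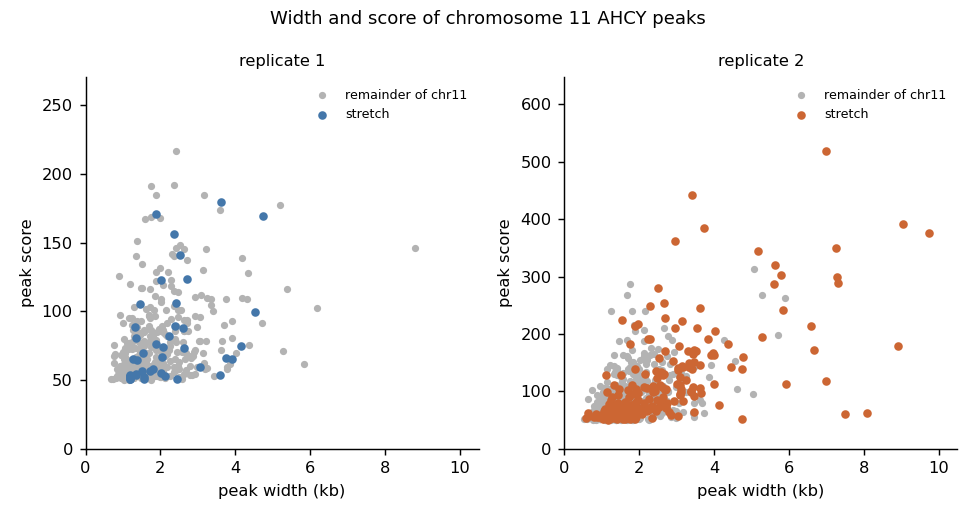
Score against width in kb for every AHCY peak of chromosome 11 in replicate 1 (left) and replicate 2 (right), with the stretch in colour and the remainder in grey. In replicate 2 the peaks of the stretch reach 9730 bp and a score of 518.0, while those of the remainder stay at or below 5891 bp and 313.0.

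A larger share of the replicate 1 peaks of the stretch than of the replicate 2 peaks overlapped a peak of the other list. Each replicate 1 peak there overlapped at most 2 replicate 2 peaks, and each replicate 2 peak at most 1 replicate 1 peak. The contrast was therefore largely set by the replicate 2 surplus for which the stretch was chosen. A partner, meaning a peak of the other list that overlaps by 1 bp or more, was found for 27 of the 42 replicate 1 peaks (64.3%, exact 95% interval 48.0 to 78.4%), compared with 183 of 348 on the remainder (52.6%, 47.2 to 57.9%) and 51.4% of the whole list, a share within the interval of the stretch. This majority was lost with reciprocal overlap of 50% (47.6%), with lists of equal length (45.2%) and with scores of at least 100 (33.3%). Of the 211 replicate 2 peaks, 29 had a partner (13.7%, 9.40 to 19.1%), compared with 184 of 463 on the remainder (39.7%, 35.3 to 44.4%) and 19.7% of the whole list. The same surplus lowers this share in the stretch, whereas the remainder held 348 replicate 1 beside 463 replicate 2 peaks. Replicate 2 peaks covered 38.4% of the block and 2.09% of the rest of the stretch. An overlap of 1 bp was therefore more easily met in the block, wherever a replicate 1 peak lay. In the block, 14 of 16 replicate 1 peaks had a partner, against 13 of 26 in the rest of the stretch. The 2 without one lay near the lower edge of the block, at 96711149 to 96713162 (score 55.4) and 96789908 to 96791619 (score 56.3), and are named here because they were so few.

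The 27 paired replicate 1 peaks held a similar place in their own list in the stretch and on the remainder, while their partners stood higher in the replicate 2 list. In replicate 1 the median rank of paired peaks, as a share of the list from the top, was 40.3% in the stretch and 40.6% on the remainder. In replicate 2 the median rank of the best-scoring partner was 12.8% and 29.7%. In the block, the 14 pairs had median ranks of 49.7% in replicate 1 and 4.52% in replicate 2, and the 13 pairs of the rest of the stretch 36.2% and 28.9%. The lists differ in length, so these ranks are compared between places within 1 list and not between lists. The midpoints of a peak and its best-scoring partner lay further apart in the stretch, at a median of 415.5 bp (quartiles 140.8 and 846.3 bp). On the remainder it was 194.5 bp (68.5 and 412.5 bp). The paired peaks were also wider in the stretch, with medians of 2075 and 2227 bp in replicates 1 and 2, against 1872 and 1718 bp. The median overlap took up 93.1% of the replicate 1 peak and 91.7% of the replicate 2 peak. On the remainder these shares were 85.6% and 95.4%. Within the block, replicate 1 scores of the pairs ran from 52.6 to 169.5 and the scores of their best partners from 51.7 to 392.2, and the replicate 2 peak was the wider one in 10 of 14. In the rest of the stretch it was the wider one in 5 of 13, and on the remainder in 71 of 183. For 2 of the 14 pairs of the block the replicate 1 peak met 2 replicate 2 peaks, against 0 in the rest of the stretch and 1 on the remainder. In the block the median overlap took up 97.6% of the replicate 1 peak and 68.5% of the replicate 2 peak.

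Of the 182 replicate 2 peaks without a partner, 3 lay less than 500 bp and 22 less than 5 kb from the nearest replicate 1 peak. Their median distance was 27187 bp, and 46 were 50 kb or more away. Their median score was 84.6, against 110.5 for the 29 with a partner. For replicate 1 these medians were 56.3 for the 15 peaks without and 73.5 for the 27 with a partner. In both lists, then, peaks of the stretch with a partner had the higher median score, as on the remainder (95.7 with and 66.8 without a partner in replicate 2, 73.2 and 62.1 in replicate 1).

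The 10 best-scoring replicate 2 peaks of the stretch all lay in the block, which held 80.1% of all replicate 2 peaks of the stretch. Of these 10 peaks, 5 overlapped a replicate 1 peak, beside 9.47% of all replicate 2 peaks of the block. The first, at 97845200 to 97852179, had a score of 518.0 (rank 17 of the whole list), and the nearest replicate 1 peak was 35756 bp away with a score of 52.6. The second, at 97488009 to 97491419, had 442.3 (rank 32) and its nearest replicate 1 peak was 24418 bp away. Neither of these strongest replicate 2 peaks was thus matched in replicate 1.

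The third best peak, at 97401763 to 97410817, was 9055 bp wide with a score of 392.2, and the replicate 1 peak inside it was 2599 bp wide with a score of 87.9. The fourth, at 97520636 to 97524359, had a score of 384.6 and lay wholly within a replicate 1 peak with a score of 169.5. The fifth, at 97532742 to 97542471, was the widest of the stretch at 9730 bp with a score of 375.9, but it met its partner over only 192 bp. That replicate 1 peak also held the whole of a weaker replicate 2 peak, at 97529213 to 97532394 with a score of 82.4. These 3 differ in kind: a narrow replicate 1 peak within a wide one, a close match, and a touch at the edge.

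The sixth, at 97641162 to 97644114, had a score of 361.3 and a partner with 64.7, and the eighth, at 97427697 to 97432870, had 344.7 and a partner with 54.6. Without a partner were the seventh at 97358239 to 97365486 (350.6), the ninth at 96853471 to 96859100 (319.7) and the tenth at 97555079 to 97560861 (302.2). The 5 partners had replicate 1 scores between 54.6 and 169.5, and the median of the whole replicate 1 list, 67.1, lay within that range.

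The 5 best-scoring replicate 1 peaks of the stretch lay mostly outside the block, as did 61.9% of all replicate 1 peaks of the stretch. The first was at 96130918 to 96134526 with a score of 179.8 (rank 61 of the whole list), and its replicate 2 partner had 191.7. The second was at 95867544 to 95869424 with 170.8 (rank 80) and had no partner, although a replicate 2 peak with a score of 217.6 ended only 40 bp before it, at 95867503. The third, at 97519771 to 97524512 with 169.5 (rank 84), was the only one in the block, and its partner had 384.6.

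The fourth, at 98188057 to 98190428, had 155.9 and a partner with 182.2. The fifth, at 95995530 to 95998060, had 140.7 and a partner with 62.4. Of these 5 peaks, 4 had a partner, compared with 64.3% of all replicate 1 peaks of the stretch, and the other lay beside a replicate 2 peak. After the peak at 95867544, the best replicate 1 peaks with no partner were at 96111575 to 96114296 (123.3, with 17713 bp to the nearest replicate 2 peak) and at 98218779 to 98221192 (106.1, with 6859 bp).

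By the mean of both ranks, each taken as a share of its list, the best site of the stretch was 97519771 to 97524512 (ranks 84 and 71). Next were 96130918 to 96134526 (ranks 61 and 654) and 98186275 to 98190642 (ranks 128 and 763). The fourth, at 96882029 to 96886595, combined a replicate 1 peak of 4519 bp (score 99.4) with 2 replicate 2 peaks, the better with a score of 171.1. The fifth was 97401763 to 97410817, named above among the best replicate 2 peaks. The first stood at 1.24% by this mean and the fifth at 12.7%.

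The borders of the stretch at 95 and 100 Mb were round numbers. Just outside the lower border, replicate 2 had peaks at 94899409 (score 61.6) and 94981282 (127.2), and just inside it at 95119808 (66.6) and 95198298 (56.7). The last inside the upper border were at 98901606 (97.0) and 99283026 (69.4), and the first outside at 100257098 (114.2) and 100333051 (55.2). At the lower border, the counts from 94 to 95 Mb and from 95 to 96 Mb were 8 and 8 in replicate 2 and 5 and 8 in replicate 1. At the upper border, the counts from 99 to 100 Mb and from 100 to 101 Mb were 1 and 6 in replicate 2 and 2 and 7 in replicate 1, so both lists were sparser just inside that border than just outside it.

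Set beside other places where replicate 2 listed many more peaks, the stretch had the densest replicate 2 peaks, with no test of the differences. The places differ in length, and the stretch is a single window picked for its surplus. Replicate 2 had 42.2 peaks per Mb in the stretch, 27.8 on chromosome 8, 18.7 on chromosome 6 and 11.6 from 45 to 65 Mb of chromosome 14. Replicate 1 had 8.40, 1.92, 1.56 and 0.40 peaks per Mb in the same places. Relative to replicate 1, the surplus of replicate 2 was smallest in the stretch, with 211 beside 42 peaks. It was 3571 beside 247 on chromosome 8, 2720 beside 228 on chromosome 6 and 232 beside 8 in the part of chromosome 14. The surplus limits the share of replicate 2 peaks that can have a partner. Peaks of 3 kb or more made up 31.8% of the replicate 2 peaks of the stretch, 13.0% on chromosome 8, 8.38% on chromosome 6 and 0.862% in the part of chromosome 14. The median replicate 2 score was 90.3 in the stretch, 73.1 on chromosome 8, 69.9 on chromosome 6 and 78.0 in the part of chromosome 14. In replicate 1 these medians were 66.2, 65.03, 65.7 and 67.6, the last over 8 peaks. A partner was found for 13.7% of the replicate 2 peaks in the stretch, 6.10% on chromosome 8, 7.17% on chromosome 6 and 1.72% in the part of chromosome 14. For replicate 1 peaks the order was another one, at 64.3% in the stretch, 87.4% on chromosome 8, 83.8% on chromosome 6 and 50.0% (4 of 8) in the part of chromosome 14.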

How the data were processed

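Peak lists of 2 AHCY ChIP-seq libraries were used. The authors deposited for each peak its position, name and score, 1 list per library, and the peak names carry the name MACS, per the file headers and columns; no version or settings of the caller are stated there. Bowtie, TopHat and the build mm9 are named, without roles, per the submitters' processing notes. The track line of replicate 1 speaks of a pool and that of replicate 2 of an IgG pool, per the file headers, so whether the controls were alike is unknown.

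Starts were converted to counting from 1. The remainder of chromosome 11 spans 112.96 Mb, between the outermost peaks of the lists, without the stretch. A partner overlaps by at least 1 bp. Intervals are exact 95%. Regions named by position are the best-scoring 10 replicate 2 and 5 replicate 1 peaks, the 5 widest, the 5 best shared, the best 3 unshared per list, the 5 longest runs and the peaks next to the borders. The stretch, the lists and these rules were chosen with earlier results of these data known. Alternatives were other overlap rules, memberships, score limits, list lengths and references. Overlap, coverage and run counting were tested on simulated data. The work used scipy 1.17.1, matplotlib 3.10.9, pandas 2.3.3 and numpy 2.4.6 under Python 3.11.15.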

Additional observations from a re-analysis of the deposited data

How the results depend on the processing

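Of 70 alternative values, 42 stayed within the interval of the reported value, within 1.5 times it for counts, or equal to it for coverage, which has no interval. Membership by the whole peak or by any base changed 0 of them. No peak lay across a border of the stretch, so these settings could not change a value. They are nevertheless counted among the 70 and the 42. With the inner 96 to 98 Mb, replicate 1 had 22 peaks, and coverage was 24.9% in replicate 2 and 2.63% in replicate 1. The density ratio, here to all of chromosome 11 outside 96 to 98 Mb, was 20.5 in replicate 2. It was 13.3 in both lists together (7.05 in the full stretch). With the better-scoring 50% of each list, 128 replicate 2 and 20 replicate 1 peaks remained, coverage was 8.28% and 1.01%, 8.59% of replicate 2 peaks had a partner and the median gap was 5829 bp. With scores of at least 100, 92 and 9 peaks remained, coverage was 6.68% and 0.475%, the density ratio 16.5 in replicate 2 and 12.3 in both lists, the shares with a partner 33.3% in replicate 1 and 3.26% in replicate 2, and the median gap 8382 bp. Against 20 Mb on either side, the density ratio was 7.89 in replicate 2 and 5.34 in both lists. Leaving out replicate 1 or 2 gave 10.3 and 2.73 in place of the joint 7.05, so replicate 2 decides the joint value. Reciprocal overlap of 50% left 47.6% of the replicate 1 peaks with a partner, and lists of equal length 45.2%. The longest run held 43 replicate 2 peaks with a limit of 20 kb and 78 with 30 kb, in place of 169; limits of 45, 60 and 100 kb, chosen like these after seeing the data, gave 169, 175 and 188. No paired analysis was possible because only 1 group has peak lists. Depth, the IgG signal and the meaning of the score are unknown, so a site missing from a list may have lain under its score limit.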
